A study of Mus musculus with 2 samples.

Results

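Bile acids and many drugs pass through the hepatocyte, from portal blood to bile, by way of transport proteins in opposite faces of the cell. The 9 genes described here encode such proteins and were chosen by name and role from the 27998 genes listed in the deposited files. Slc10a1, Slco1a1, Slco1a4 and Slco1b2 take up solutes across the sinusoidal (blood-facing) membrane. Abcb11, Abcb4, Abcc2 and Abcg5 export across the canalicular (bile-facing) membrane, and Abcc3 exports across the basolateral membrane back to blood. All 9 had UMIs in both libraries and at least 10 CPM at each time, both above 30% and under 2% mitochondrial UMIs.

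The hepatocytes were freed from the livers of C57BL/6 mice, as the labels name them (C57BL/6J in the methods of the study), by perfusion with collagenase. The mice were reported as male, aged 10 to 12 weeks per the labels and kept on a normal diet. Transcripts were counted by droplet scRNA-Seq with the 10X version 2 chemistry. In this assay a barcode marks the droplet and a unique molecular identifier (UMI) marks each captured transcript, so that a molecule is counted once, from its 3′ end. The 0 h library came from healthy liver, and the PHx48h library from liver taken 48 h after partial hepatectomy (PHx), a resection of liver tissue that sets off regrowth of the rest. Each group was 1 library from 1 hepatocyte preparation, the labels name no transgene or other agent, and a change after PHx cannot be told apart from a difference between 2 mice or 2 libraries.

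In the textbook account, Slc10a1 brings conjugated bile acids into the hepatocyte with sodium and Abcb11 pumps them into the canaliculus, while the organic anion transporters of the Slco1 family carry unconjugated bile acids, bilirubin, thyroid hormone conjugates and drugs. The nuclear receptor Fxr (Nr1h4) binds bile acids and turns on Abcb11 and the repressor Shp (Nr0b2), and Abcc3 is known as a route of overflow to blood when bile flow is impaired. Some of the genes are known to differ in level between hepatocytes near the portal vein (periportal) and near the central vein (perivenous).

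Barcodes were divided by the share of UMIs from the 13 mitochondrial (mt) genes, a common measure of RNA quality, and all levels are counts per 1e6 non-mt UMIs (CPM), summed over a set of barcodes. The set above 30% mt held 3870 of 59202 barcodes at 0 h (6.54%, median mt share 48.2%) and 765 of 1586 at 48 h (48.2%, median mt share 57.0%). The set under 2% mt held 52587 barcodes at 0 h (88.8%) and 522 at 48 h (32.9%). The barcodes under 2% mt at 0 h were alike: after thinning to 500 non-mt UMIs each, the variance of the 9 genes over barcodes was 1.01 to 1.03 times the mean, close to what counting alone gives, and the shallowest of them held 1162 non-mt UMIs. Whether these barcodes are single cells was not tested, and every level under 2% mt at 0 h, and every ratio to it, is that of the set as summed. The median barcode had 1213.5 and 1413 non-mt UMIs at 0 h, above 30% and under 2% mt respectively, and 4411 and 5271.5 at 48 h. The 0 h and 48 h libraries held 96118593 and 18198719 UMIs, and 148 barcode sequences occurred in both (9.33% of those at 48 h). All 8 hepatocyte markers, led by Alb, were detected in the 4 sets, at a summed 105901 CPM at 0 h above 30% mt, 91890 at 0 h under 2% mt, 102084 at 48 h above 30% mt and 65134 at 48 h under 2% mt. Macrophage, endothelial and cholangiocyte markers summed to between 5.10 and 43.9 CPM in every set, stromal markers to between 25.6 and 164.5 (highest at 48 h under 2% mt), T or NK markers to at most 6.10 and globin genes to between 0.78 and 162.4 (highest at 0 h under 2% mt); their part in the results was not tested. Among cholangiocyte markers, Sox9 led in each of the 4 sets. It stood at 7.10 and 13.7 CPM at 0 h and 48 h above 30% mt, and at 6.73 and 5.10 CPM under 2% mt. Krt19 was at 0 in 3 of the 4 sets, all but 0 h under 2% mt.

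The sequences before the start sites of 4 of the genes are shown because Slco1b2, Slco1a1 and Slc10a1 fell in both sets below and Abcb11 is the main bile salt exporter, and because short motifs of factors known to act on liver genes occur in them. The windows, from RefSeq on GRCm38.p6, are the 250 bases upstream of the annotated start, 5′ to 3′ on the strand of the gene, and 8 of the 9 genes had a window (Abcc3 did not). Capitals mark a motif match. The motifs searched on both strands, with 0 mismatches, were AGGTCA, the half-site that many nuclear receptors bind, and TTCNNNGAA, the STAT site.
Abcb11, chr2:69342617-69342866, minus strand: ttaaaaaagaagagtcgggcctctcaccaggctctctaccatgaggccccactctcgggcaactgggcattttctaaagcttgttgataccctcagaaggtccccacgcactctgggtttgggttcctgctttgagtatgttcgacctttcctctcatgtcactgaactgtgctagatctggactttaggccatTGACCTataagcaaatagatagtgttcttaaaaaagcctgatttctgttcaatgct
Slco1b2, chr6:141629268-141629517, plus strand: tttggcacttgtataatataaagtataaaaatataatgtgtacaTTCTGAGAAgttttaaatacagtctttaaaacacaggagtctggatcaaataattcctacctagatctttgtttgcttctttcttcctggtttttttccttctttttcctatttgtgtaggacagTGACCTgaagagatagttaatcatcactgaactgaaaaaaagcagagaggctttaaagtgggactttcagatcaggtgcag
Slco1a1, chr6:141946963-141947212, minus strand: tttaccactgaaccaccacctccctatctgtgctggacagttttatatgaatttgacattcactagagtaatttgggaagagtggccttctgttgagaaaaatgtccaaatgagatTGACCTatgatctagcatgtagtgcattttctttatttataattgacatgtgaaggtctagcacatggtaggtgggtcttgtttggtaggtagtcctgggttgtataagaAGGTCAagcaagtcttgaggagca
Slc10a1, chr12:80968706-80968955, minus strand: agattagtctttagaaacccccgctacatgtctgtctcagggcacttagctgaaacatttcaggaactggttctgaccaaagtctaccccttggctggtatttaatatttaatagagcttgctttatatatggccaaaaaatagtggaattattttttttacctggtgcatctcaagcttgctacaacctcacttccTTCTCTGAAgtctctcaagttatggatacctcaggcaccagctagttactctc

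The half-site occurred in 4607 of 32851 windows of the genome (14.0%). Read on the strand of the gene, Abcb11 had it as TGACCT, starting 56 bases before the start site, Slco1b2 as TGACCT, 81 bases before it, and Slco1a1 as TGACCT, 134 bases before it, and as AGGTCA, 24 bases before it. Slc10a1 did not have it in the window shown, and had it in a window at another start site that RefSeq gives. The STAT site occurred in 7.02% of windows, among them Slc10a1 (TTCTCTGAA) and Slco1b2 (TTCTGAGAA). Of the windows not shown, Abcc2 had the half-site, and neither motif occurred in those of Slco1a4, Abcb4 and Abcg5. A match describes the letters and does not show binding.

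In barcodes above 30% mt, 3 of the 4 uptake genes fell between 0 h and 48 h by 3-fold or more, and none of the 4 canalicular exporters changed by the 2-fold that counted as a call, although Abcb11 did so with TMM (trimmed mean of M-values) or median-of-ratios scaling, on all UMIs and without the 20 most abundant genes. Both scalings are alternatives to non-mt UMIs, and neither alters the gap between 2 genes of the same set. They put the median log2 ratio of all genes at -0.03 and 0.01 above 30% mt, and at -0.33 and -0.23 under 2% mt. Among the 7418 genes with at least 10 CPM at either time, 5.62% were called lower and 32.6% higher, and the median gene had a log2 ratio of 0.59. The median log2 ratio of the 4 uptake genes was -1.88, and that of the 4 canalicular exporters was 0.36, a difference of 2.24. With 1 library per group there was no test, and the intervals given with each ratio are 95% exact intervals that cover counting error only.

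Slc10a1, the sodium-dependent bile acid carrier (chr12:80953183-80968705 on GRCm38, minus strand), stood at 419 CPM at 0 h and 129 CPM at 48 h above 30% mt, and at 453 and 141 CPM under 2% mt. Both sets at 0 h were thus high and both sets at 48 h low. The log2 ratio of 48 h over 0 h was -1.70 (-1.82 to -1.57) above 30% mt and -1.69 (-1.83 to -1.55) under 2% mt, and the difference between both ratios, -0.01, lay within its counting interval of -0.19 to 0.17. On non-mt UMIs, Slc10a1 was the only gene of the 9 for which that interval held 0. Its ratios above 30% and under 2% mt became -2.26 and -2.03 with TMM scaling. They became -2.23 and -1.95 with median-of-ratios scaling. Both are shifts that carry 0 out of the interval, so the likeness of both falls depended on the scaling.

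Slco1a1, an organic anion carrier (chr6:141907282-141946962, minus strand), had the steepest fall of the 9. It stood at 482 CPM at 0 h and 56.2 CPM at 48 h above 30% mt, and at 855 and 46.2 CPM under 2% mt. The levels at 48 h in both sets did not differ beyond counting error. Its log2 ratio was -3.10 (-3.28 to -2.92) above 30% mt and -4.21 (-4.45 to -3.97) under 2% mt, which placed it at percentiles 0.162 and 0.172 of the ratios of all genes tested.

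Slco1b2, the main liver-specific member of the family (chr6:141629518-141686646, plus strand), was the most abundant of the 9 transcripts by UMIs at 0 h. It stood at 1503 CPM at 0 h and 359 CPM at 48 h above 30% mt, a log2 ratio of -2.07 (-2.14 to -1.99). Under 2% mt it stood at 2267 and 280 CPM, a log2 ratio of -3.02 (-3.11 to -2.92). The set under 2% mt was the higher at 0 h and the lower at 48 h, where with TMM scaling it was the higher at both times.

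Slco1a4, which carries organic anions and cardiac glycosides (chr6:141805440-141856199, minus strand), lies beside Slco1a1 and did not follow it. It stood at 49.7 CPM at 0 h and 80.3 CPM at 48 h above 30% mt, and at 44.0 and 32.2 CPM under 2% mt. The log2 ratio was 0.69 (0.47 to 0.92) above 30% mt, short of a call, and it was 0.13 with TMM scaling. Under 2% mt the ratio was -0.45 (-0.75 to -0.17). Slco1a4 counted 0.10 UMIs for each Slco1a1 UMI at 0 h above 30% mt and 1.43 (1.23 to 1.67) at 48 h, a ratio that no scaling of the libraries alters, and 0.05 and 0.70 under 2% mt.

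**Figure D1:**
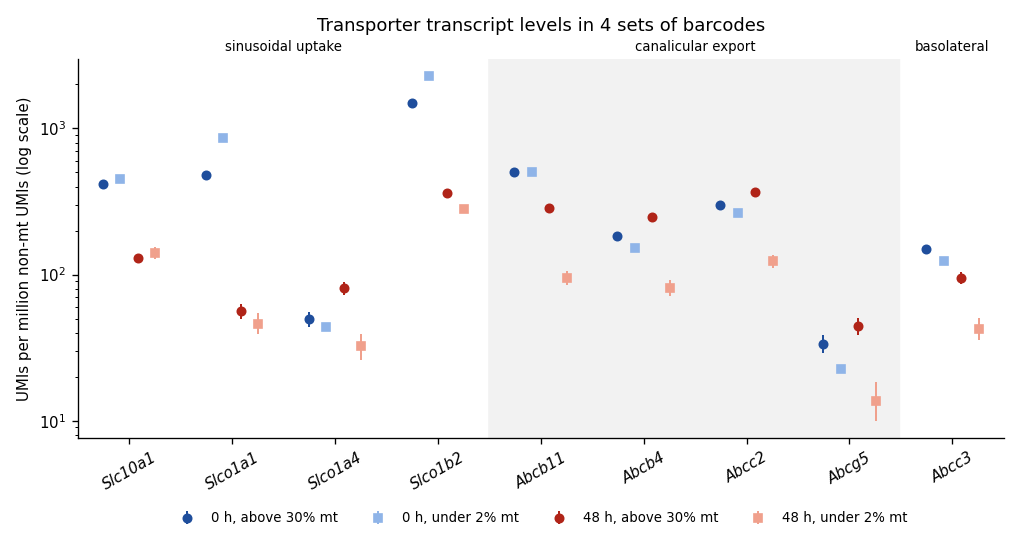
Levels of the 9 transporter transcripts in 4 sets of barcodes, in CPM of non-mt UMIs on a log axis, with 95% exact Poisson intervals. Circles are barcodes above 30% mt and squares are barcodes under 2% mt. Slc10a1, Slco1a1 and Slco1b2 lie lower at 48 h in both sets, while the canalicular exporters at 48 h lie apart by set, Abcb4 for example at 246 CPM above 30% mt and 80.7 CPM under 2% mt.

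The canalicular exporters stayed within 2-fold of their 0 h levels in barcodes above 30% mt, apart from Abcb11 under the settings named above. Abcb11, the bile salt export pump (chr2:69238282-69342616, minus strand), stood at 500.1 CPM at 0 h and 284 CPM at 48 h, a log2 ratio of -0.82 (-0.91 to -0.73), which did not reach 2-fold. It was the lowest ratio of the 4 and became -1.38 with TMM scaling and -1.35 with median-of-ratios scaling. An antisense gene, Gm13613, overlaps exons of Abcb11 and had 0 UMIs in the 4 sets.

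Abcb4, which flips phosphatidylcholine into bile (chr5:8893717-8959231, plus strand), stood at 184 CPM at 0 h and 246 CPM at 48 h. Its log2 ratio was 0.42 (0.30 to 0.54), and it was -0.14 with TMM scaling and -0.12 with median-of-ratios scaling. Of the 451 words of 50 letters in the last 500 bases of its longest transcript, 61 also occur in Abcb1a or Abcb1b, whose levels were at most 14.1 and 2.11 CPM. The other 8 genes, each read from its longest transcript, shared no such word with any other of the 68 Slco, Slc10a and Abc genes searched. The ends of their shorter transcripts were not searched.

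Abcc2, the exporter of bilirubin glucuronides and other conjugates (chr19:43782192-43840740, plus strand), stood at 297 CPM at 0 h and 369 CPM at 48 h. Its log2 ratio was 0.31 (0.22 to 0.41), and -0.25 and -0.22 with TMM and median-of-ratios scaling. Abcg5, one side of the sterol export pair with Abcg8 (chr17:84658234-84683011, minus strand), stood at 33.4 and 44.3 CPM, a log2 ratio of 0.41 (0.12 to 0.69), and -0.15 and -0.13 under those scalings. The sign of the change in Abcb4, Abcc2 and Abcg5 therefore depended on the scaling, and in no setting tried above 30% mt did any of the 3 reach 2-fold. Abcg8, the partner of Abcg5 on the opposite strand with overlapping exons, stood at 63.2 and 46.2 CPM, a log2 ratio of -0.45 (-0.69 to -0.21), and -1.01, past 2-fold, with TMM and -0.98 with median-of-ratios scaling.

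Abcc3, the basolateral exporter of conjugates (chr11:94343295-94392997, minus strand), stood at 149 CPM at 0 h and 94.6 CPM at 48 h. Its log2 ratio was -0.66 (-0.82 to -0.50), below 2-fold, and -1.22 and -1.19 with TMM and median-of-ratios scaling, past it. When barcodes were thinned to 500 non-mt UMIs it was -1.10, also past 2-fold. Abcc3 and Abcb11 were the genes that raised the number called lower from 3 to 5 under both of these scalings. TMM scaling also moved the shares of all genes called to 14.6% higher and 15.8% lower.

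**Figure D2:**
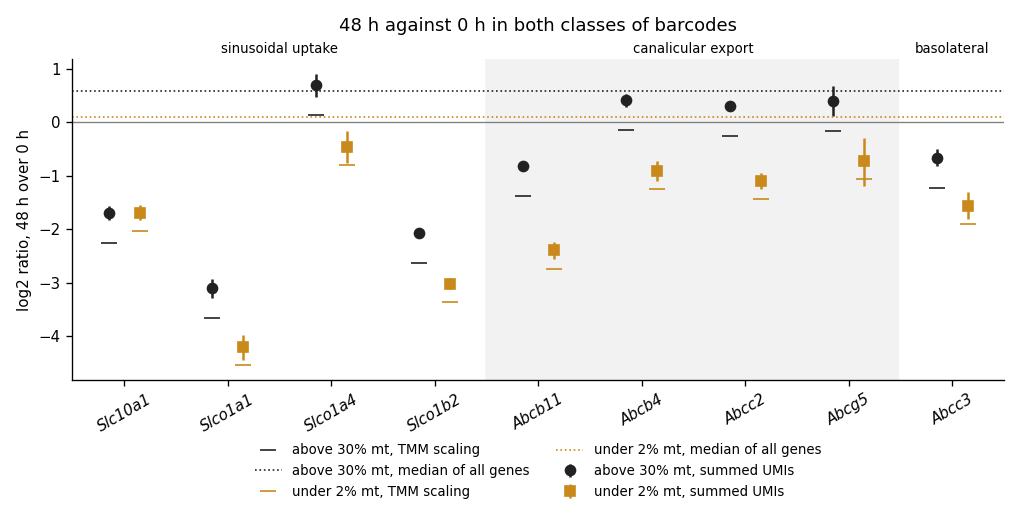
Log2 ratio of 48 h over 0 h for each transporter in barcodes above 30% mt (circles) and under 2% mt (squares), with 95% counting intervals. Short lines give the same ratio with TMM scaling and dotted lines the median of all genes tested. The 3 falling uptake genes lie at -1.69 or lower in both sets with either scaling, while Abcb4, Abcc2 and Abcg5 above 30% mt lie on opposite sides of 0 with the 2 scalings.

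Counted against each other, the sums of both roles exchanged order above 30% mt. The 4 uptake genes summed to 2453 CPM at 0 h and 625 CPM at 48 h, and the 4 canalicular exporters to 1015 and 944 CPM. Slco1b2 alone made up 1503 of the 2453 CPM, with Slc10a1 at 419, Slco1a1 at 482 and Slco1a4 at 49.7 CPM. The order of the sums at 0 h thus rested on Slco1b2. There were 0.41 canalicular UMIs (0.40 to 0.43) for each uptake UMI at 0 h and 1.51 (1.44 to 1.58) at 48 h. Abcc2 went from 0.20 to 1.03 UMIs for each Slco1b2 UMI, Abcb4 from 0.37 to 0.87 for each Abcb11 UMI, and Abcb11 from 1.19 to 2.20 for each Slc10a1 UMI, where under 2% mt that last ratio went the other way, from 1.10 to 0.68 (0.58 to 0.78). These ratios use the same barcodes above and below the line and hold under any scaling of the libraries, though 3′ counts are not corrected for how well each transcript is captured.

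Under 2% mt, the same 3 uptake genes fell, and so did Abcb11, Abcc2 and Abcc3. Of the 9 genes, 6 were called lower, against 22.3% of the 6392 genes tested, and 0 were called higher, against 26.7%. The median gene had a log2 ratio of 0.11, the 4 uptake genes a median of -2.35 and the 4 canalicular exporters a median of -1.00. The log2 ratios of Slco1a4, Abcb4 and Abcg5 lay below 0 as well, here and with TMM and median-of-ratios scaling. The canalicular genes summed to 0.26 UMIs for each uptake UMI at 0 h and 0.63 (0.58 to 0.68) at 48 h.

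Among the exporters under 2% mt, Abcb11 fell from 500.5 to 95.0 CPM, a log2 ratio of -2.40 (-2.57 to -2.23). Abcc2 fell from 263 to 123 CPM, a log2 ratio of -1.09 (-1.24 to -0.95), and Abcc3 fell from 125 to 42.4 CPM, a log2 ratio of -1.56 (-1.81 to -1.31). Abcb4 stood at 151 and 80.7 CPM (log2 ratio -0.90) and Abcg5 at 22.6 and 13.7 CPM (-0.72, on 43 UMIs at 48 h). The time ratio of Abcb11 above 30% mt exceeded that under 2% mt by 1.58 (1.39 to 1.77) on the log2 scale. The same difference was 1.40 for Abcc2, 1.32 for Abcb4, 1.13 for Abcg5, 0.90 for Abcc3, 1.14 for Slco1a4, 1.11 for Slco1a1 and 0.95 for Slco1b2, and the counting intervals of Abcc2, Abcb4, Abcg5, Slco1a4 and Slco1a1 overlapped that of Abcb11.

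Within a library, the exporters of both sets were less than 2-fold apart at 0 h and more than 2-fold apart at 48 h, although Abcc3 was not with TMM or median-of-ratios scaling. At 0 h none of the 9 genes differed 2-fold between barcodes above 30% and under 2% mt, where 13.6% of the genes tested were called higher and 10.8% lower. The log2 ratio of above over under ran from -0.83 for Slco1a1 to 0.56 for Abcg5, and that of Abcb11 was -0.00 (-0.06 to 0.05). At 48 h, 6 of the 9 were called higher above 30% mt, against 35.2% of the 7380 genes tested, with 7.24% called lower and a median log2 ratio of 0.60 over all genes. The 6 were Slco1a4 and all 5 exporters, with log2 ratios of 1.32 for Slco1a4, 1.58 for Abcb11, 1.61 for Abcb4, 1.58 for Abcc2, 1.69 for Abcg5 and 1.16 for Abcc3. With TMM scaling these became 0.81, 1.06, 1.10, 1.07, 1.18 and 0.64, so that 4 of the 6, the canalicular exporters, stayed past 2-fold. With median-of-ratios scaling these 4 lay close to that limit, Abcb11 at 1.001, Abcb4 at 1.033, Abcc2 at 1.004 and Abcg5 at 1.114. Slc10a1, Slco1a1 and Slco1b2 lay between -0.12 and 0.36, and between -0.64 and -0.15 with TMM scaling.

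A finer division by mt share showed where the levels parted. At 48 h, Abcb11 stood at 95.0 CPM under 2% mt, 89.1 CPM from 2% to 10%, 232 CPM from 10% to 30%, 265 CPM from 30% to 50% and 301 CPM from 50% to 70%. Abcb4 and Abcc2 took the same step between 2% to 10% and 10% to 30% mt, Abcb4 from 46.5 to 143 CPM and Abcc2 from 114 to 314 CPM. The uptake genes were higher across that edge too, Slc10a1 at 87.1 and 163 CPM, Slco1b2 at 206 and 393, Slco1a4 at 25.7 and 56.4 and Slco1a1 at 30.7 and 52.8 CPM. At 0 h Abcb11 stayed between 422 and 510 CPM over those 5 bins. Slco1a1 at 0 h ran the other way, from 855 CPM under 2% mt to 398 CPM at 50% to 70% mt, and Slco1b2 stood at 2267 and 1327 CPM in the same bins. The fall of Slco1b2 was seen within bins, from 1559 CPM at 0 h to 346 CPM at 48 h at 30% to 50% mt and from 1327 to 349 CPM at 50% to 70% mt. The median depth at 48 h moved over these bins between 4198.5 and 7479 non-mt UMIs. The 299 barcodes from 2% to 30% mt at 48 h held 7699 of the 8996 UMIs of non-hepatocyte markers in that library. The sets above 30% and under 2% mt held 580 and 717 of them. The part of depth and of other cells in these levels, and in the step between 2% to 10% and 10% to 30% mt, was not tested.

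**Figure D3:**
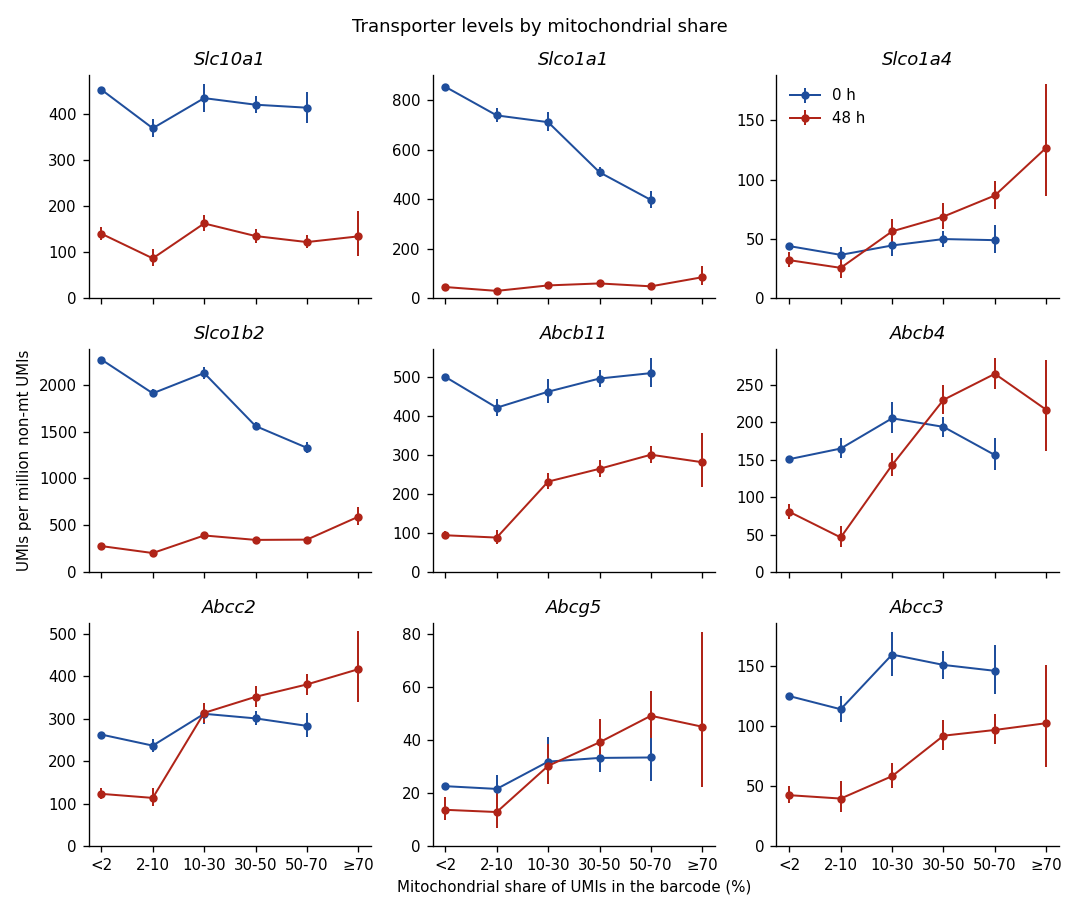
Levels of the 9 transcripts (CPM of non-mt UMIs, linear axes from 0) against the mt share of the barcodes, at 0 h and at 48 h, with 95% exact Poisson intervals; bins under 20 barcodes are not drawn. At 48 h all 9 genes are higher at 10% to 30% mt than at 2% to 10% mt, for example Abcc2 at 314 against 114 CPM and Slc10a1 at 163 against 87.1 CPM. Both of these bins together held most UMIs of non-hepatocyte markers in the 48 h library.

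Levels per barcode were compared after each barcode was thinned to 500 non-mt UMIs, which left out 75 shallower barcodes of the 0 h set above 30% mt. Slco1b2 had a UMI in 45.8% of barcodes at 0 h and 19.3% at 48 h above 30% mt, and in 67.8% and 14.2% under 2% mt. Abcb11 had a UMI in 21.8% and 15.2% above 30% mt and in 22.1% and 4.02% under 2% mt. Without thinning, Abcb11 was seen in 46.8% of barcodes at 0 h and 69.9% at 48 h above 30% mt, an order opposite to that of the CPM, the 48 h barcodes being the deeper.

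Free RNA in the droplets also gives UMIs in cells that do not make a transcript. In 216 barcodes rich in macrophage or endothelial markers at 0 h (median 2924 non-mt UMIs, any mt share), thinned in the same way, Slco1b2 had a UMI in 48.6% (41.8 to 55.5), Slco1a1 in 16.7%, Abcb11 in 11.1%, Slc10a1 in 9.26%, Abcc2 in 8.33% and Abcb4 in 7.41%. The Slco1b2 share at 0 h above 30% mt did not exceed that of these barcodes, so the share alone shows no expression beyond background, although the summed level was higher (1503 against 1151 CPM) and, as given below, differed between zonal tertiles. The shares of Slco1a1, Slco1a4, Abcb4, Abcg5 and Abcc3 lay within the counting intervals of theirs. Abcb11 at 21.8%, Slc10a1 at 18.8% and Abcc2 at 13.3% lay above these intervals. In summed levels the marker-rich barcodes had 246 CPM of Abcb11. Of the 216, 1 lay above 30% mt and 14 under 2% mt. At 48 h there were 18 such barcodes and 7 of the 9 genes had no UMI in them after thinning, which allows a share of up to 18.5% each.

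The spread of Slco1b2 over barcodes set it apart from the other genes at 0 h above 30% mt. Its variance over barcodes was 1.40 times its mean at 0 h above 30% mt, where counting alone gives a ratio near 1, and 1.01 under 2% mt; at 48 h the ratios were 1.10 and 0.98. The other 8 genes lay between 0.97 and 1.08 above 30% mt at both times. Slco1b2 also varied most with zonal markers. Barcodes were ranked within each set by the UMIs of 10 perivenous genes as a share of those of 10 perivenous and 10 periportal genes, none of them a transporter, and cut into equal tertiles. Tertiles of a continuous score are ranges and not cell types, and 240 barcodes at 0 h and 76 at 48 h lay within 2 percentage points of a cut. Above 30% mt, the periportal tertile ended at a score of 40% at 0 h and 29.4% at 48 h. The perivenous tertile began at 77.8% at 0 h and 62.9% at 48 h. Time ratios within a tertile, and gradients set side by side, thus compare unlike score ranges, and the part of this was not tested.

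At 0 h above 30% mt, Slco1b2 stood at 757 CPM in the periportal tertile, 1169 CPM in the middle one and 2833 CPM in the perivenous one, a log2 ratio of perivenous over periportal of 1.90 (1.82 to 1.99). At 48 h it stood at 197, 311 and 702 CPM, a log2 ratio of 1.84 (1.67 to 2.00). The level had fallen by a similar factor in each tertile, with log2 ratios of 48 h over 0 h of -1.94, -1.91 and -2.01, and the gradient at 48 h overlapped that at 0 h within counting error. Slco1a1 kept a smaller perivenous excess, with log2 ratios of 0.56 at 0 h and 0.54 at 48 h. On non-mt UMIs Slc10a1 showed none beyond counting error, with -0.10 (-0.25 to 0.05) at 0 h and 0.15 (-0.13 to 0.42) at 48 h.

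Abcc3 had a gradient at 0 h that was not detected at 48 h. It stood at 99.9, 131 and 233 CPM from the periportal to the perivenous tertile at 0 h, a log2 ratio of 1.22 (0.97 to 1.48), and at 97.1, 92.4 and 92.9 CPM at 48 h, a log2 ratio of -0.06 (-0.39 to 0.26). Its log2 ratio of 48 h over 0 h was accordingly -1.33 (-1.64 to -1.03) in the perivenous tertile and -0.04 (-0.32 to 0.24) in the periportal one. Abcc2 also had the steeper gradient at 0 h, with 228, 257 and 432 CPM and a log2 ratio of 0.92 (0.75 to 1.09), against 348, 367 and 410 CPM and 0.24 (0.08 to 0.40) at 48 h. Abcb4 changed side, from 0.49 (0.27 to 0.70) at 0 h to -0.36 (-0.57 to -0.15) at 48 h, and Abcg5 had -0.80 (-1.36 to -0.27) at 48 h, on 39 perivenous UMIs, after 0.45 (-0.07 to 0.97) at 0 h. Abcb11 had a periportal excess at 0 h, with 566, 507 and 412 CPM and a log2 ratio of -0.46 (-0.60 to -0.32), and at 48 h the ratio was -0.13 (-0.32 to 0.06). TMM and median-of-ratios scaling turned none of these signs but lowered the ratios. Slc10a1 at 0 h became -0.34 and -0.39 and Abcb11 at 48 h -0.23 and -0.22, shifts that carry their counting intervals below 0. Abcc2 at 48 h became 0.14 and 0.15, shifts that bring 0 into its interval, and Abcb4 at 0 h became 0.20 with median of ratios, which does the same. Slco1a1 at 0 h became 0.32 and 0.27.

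The median perivenous barcode at 48 h was shallower than the periportal one, at 3654 against 6782 non-mt UMIs, while at 0 h these were 1144.5 and 1216. The median number of zonal UMIs behind a barcode's score at 0 h was 9 in the periportal and 23 in the perivenous tertile, and the part of depth in the gradients was not tested. Under 2% mt at 0 h, where 18267 of 52587 barcodes lay within 2 percentage points of a cut, the 9 log2 ratios between tertiles lay between -0.05 and 0.05. Under 2% mt at 48 h they exceeded their counting error for Slco1b2 (0.82, 0.57 to 1.07) and Abcb11 (0.63, 0.22 to 1.04).

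**Figure D4:**
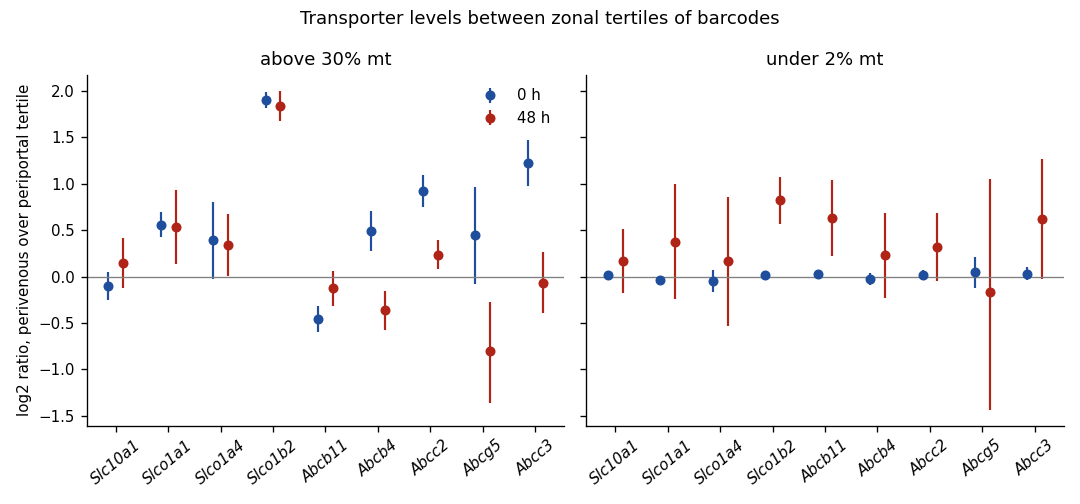
Log2 ratio of perivenous over periportal tertile for each transporter, above 30% mt (left) and under 2% mt (right), at 0 h and 48 h, with 95% counting intervals. Above 30% mt Slco1b2 lies at 1.90 and 1.84 at both times and Abcc3 at 1.22 at 0 h and -0.06 at 48 h; under 2% mt at 0 h the ratios lie between -0.05 and 0.05. With TMM scaling no sign changes above 30% mt.

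Other carriers of both faces were read from a list of 16 genes. Of 5 further uptake carriers, 3 were called lower above 30% mt, against 5.62% of all genes, with a median log2 ratio of -1.17: Slc22a7, an organic anion carrier, fell from 299 to 74.8 CPM (log2 ratio -2.00), Slco2b1 from 199 to 86.0 CPM (-1.21) and the aromatic amino acid carrier Slc16a10 from 87.6 to 39.0 CPM (-1.17). The same 3 were lower under 2% mt, against 22.3% of all genes there, and the 5 had a median log2 ratio of -2.00. With TMM scaling all 5 were called lower above 30% mt, against 15.8% of all genes. Of 11 further exporters and related genes, 8 reached 10 CPM above 30% mt, with a median log2 ratio of -0.43. Of these, 2 were higher and 1 lower, and 2 were higher and 4 lower with TMM scaling, where of all genes 32.6% were higher and 5.62% lower, and 14.6% and 15.8% with TMM scaling. Abcb1a, a multidrug exporter, rose from 1.90 to 14.1 CPM (11 and 72 UMIs, log2 ratio 2.89, 1.97 to 3.95), and Slc51b, one subunit of the basolateral bile acid exporter, rose from 1.38 to 10.8 CPM (8 and 55 UMIs, 2.96, 1.88 to 4.24). Both reached 10 CPM at 48 h alone, so that a call in the other direction was not open to them and the count of 2 supports nothing. Slc51a, the other subunit of that exporter, had 0 UMIs in the 4 sets. Slc47a1, a cation exporter, fell from 109 to 53.1 CPM (-1.04). Of the 11, 7 were tested under 2% mt, with 5 lower and 1 higher and a median log2 ratio of -1.75. Of all genes there, 22.3% were lower and 26.7% higher. The 1 higher was Slc51b, at 1.04 and 20.1 CPM, which reached 10 CPM at 48 h alone in this set too.

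Of 12 regulators known to act on these genes, 5 were higher and 0 lower above 30% mt, with a median log2 ratio of 0.87, against the 32.6% and 5.62% of all genes above. These were Hnf4a (95.9 to 259 CPM, log2 ratio 1.43), Rxra, the partner of many nuclear receptors (109 to 230 CPM, 1.08), Nfe2l2 (18.0 to 57.6 CPM, 1.68), Ahr (13.2 to 29.4 CPM, 1.16) and Ppara (14.4 to 34.9 CPM, 1.28). The bile acid receptor gene Nr1h4 stood at 39.8 and 73.3 CPM (0.88) and Nr0b2, its target, at 39.6 and 54.1 CPM (0.45), both short of 2-fold, and with TMM scaling Nr0b2 turned to -0.11. With that scaling 1 of the 12, Nfe2l2, was still called higher (1.12), against 14.6% of all genes, and the median was 0.31. Under 2% mt, 11 regulators were tested, of which Nr1i2 and Ppara were higher and Stat5b lower, against 26.7% and 22.3% of all genes. With TMM scaling 0 were higher and 1 lower, against 18.2% and 31.8%. Ppara (9.56 and 20.7 CPM) reached 10 CPM at 48 h alone and Stat5b (16.5 and 6.06 CPM) at 0 h alone. A call in the other direction was thus not open to either, and their calls support nothing.

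**Figure D5:**
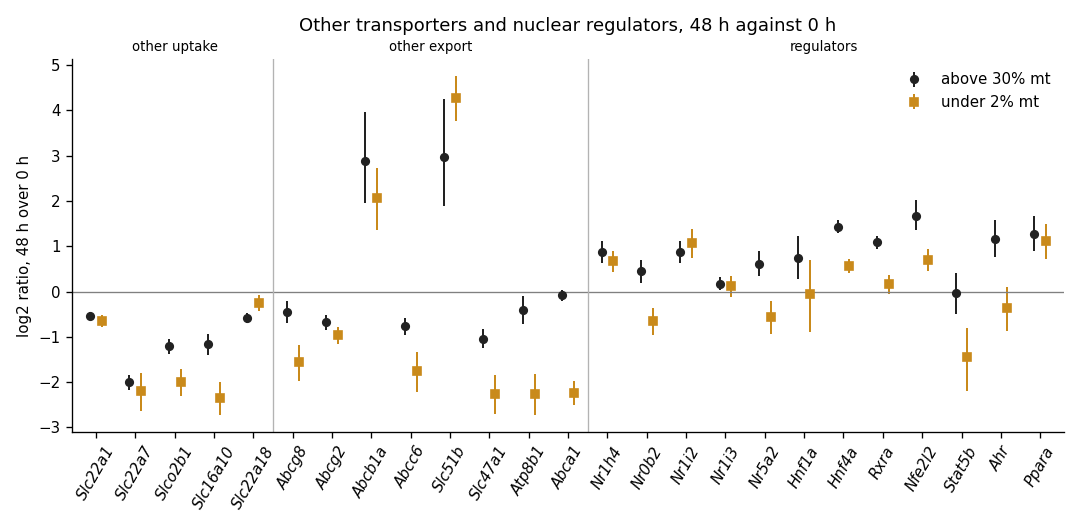
Log2 ratio of 48 h over 0 h for other uptake carriers, other exporters and nuclear regulators with at least 10 CPM in 1 of both sets above 30% mt, in barcodes above 30% mt (circles) and under 2% mt (squares), scaled to non-mt UMIs, with 95% counting intervals. All 5 other uptake carriers lie below 0 in both sets, also with TMM scaling, and Abcb1a and Slc51b lie highest; with TMM scaling Nr0b2 above 30% mt moves to -0.11.

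The genes whose levels over the 4 sets ran closest to each transporter were found among 3030 genes with at least 50 CPM in 1 set, by the root mean square difference of centred log2(CPM + 1). Closest to Slc10a1 were Mup20 (0.10) and Sgms2 (0.12), to Slco1a1 Cyp4a12a (0.14) and Mup12 (0.23), to Slco1a4 Ncor1 (0.03) and Mfn1 (0.06), and to Slco1b2 Sucnr1 (0.06) and Tsc22d1 (0.13). Closest to Abcb11 were Ptprd (0.05) and Atp2a2 (0.07), to Abcb4 Ttyh2 (0.05) and Cluh (0.06), to Abcc2 Cluh (0.04) and Ces2e (0.07), to Abcg5 Pds5a (0.05) and Txndc11 (0.06), and to Abcc3 F5 (0.03) and Hsp90b1 (0.04). With 4 sets from 2 libraries this likeness is a description. Cluh was thus shared by Abcb4 and Abcc2, and no transporter was among the 2 closest genes of another.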

How the data were processed

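Cell Ranger (version not given in the sources used here; build mm10 per the labels) was run by the authors, who deposited tables of UMI counts by gene and barcode. The counts were whole numbers without normalization, for 1 library at 0 h and 1 at 48 h after PHx. Groups came from the time point in the labels. The study names filters on mt content and doublets, and at both times it kept fewer cells than the barcodes used here. The gap was by far the larger at 0 h. Neither filter was applied here, since the sets are defined by mt share, no doublet caller was run and doublets were not removed. The members and the gene lists were chosen with earlier results of these data known.

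From the deposited counts, UMIs were summed over the barcodes above 30% or under 2% mt of each library and divided by non-mt UMIs to give CPM. A gene was tested for a call when it had at least 10 CPM in either set, and called when the sets differed at least 2-fold. With 1 library per group no p-value was computed. Ratios carry exact conditional binomial intervals, levels exact Poisson intervals and shares of barcodes exact Clopper-Pearson intervals, at 95%. Differences of the time ratio between both mt sets carry 95% intervals from a normal approximation. All intervals cover counting error only. Marker-rich barcodes had at least 5 macrophage or endothelial UMIs that made up at least 1% of non-mt UMIs. The ratio step was tested on simulated data. Named genes were the 9 members, genes of the other lists called above 30% mt or partners of a member, and the 2 genes closest to each member over the 4 sets; Nr1h4, Nr0b2, Nr1i2, Stat5b, Slc51a, Abcb1b and Gm13613 were named after their values were seen. The 2 motifs searched are textbook consensus letters set by hand, chosen after longer motifs, not reported here, had been searched in the same windows. Coordinates came from GENCODE M21 on GRCm38 through gene identifiers.

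Alternatives were other mt limits, all UMIs, leaving out the 20 most abundant genes, TMM (edgeR 4.0.16) and median-of-ratios (DESeq2 1.42.0) scaling in R 4.3.3, the mean over single barcodes, depth and marker-rich filters, thinning to 500 UMIs, no low-value filter and 10 CPM added. The zonal score without Cyp2e1 and Cyp2f2, and the scaling of set and zonal ratios, were chosen after seeing the data. Numpy 2.4.6, pandas 2.3.3 and scipy 1.17.1 were used.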

Additional observations from a re-analysis of the deposited data

Results flagged for a closer look

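Slco1b2 was lower above 30% mt than under 2% mt at 0 h (log2 ratio -0.59) and higher at 48 h (0.36), a difference of 0.95 on the log2 scale between the time points; with TMM scaling the ratios were -0.76 and -0.15, on the same side. Between 0 h and 48 h, 4 genes moved up above 30% mt and down under 2% mt beyond counting error. The log2 ratio above 30% mt exceeded that under 2% mt by 1.14 for Slco1a4, 1.32 for Abcb4, 1.40 for Abcc2 and 1.13 for Abcg5. With TMM scaling the ratios of Abcb4, Abcc2 and Abcg5 were below 0 in both sets, and that of Slco1a4 was 0.13 above 30% mt and -0.79 under 2% mt. Above 30% mt, the log2 ratio of Abcb4 between the perivenous and the periportal tertile was 0.49 at 0 h and -0.36 at 48 h, a change of -0.85. These ratios became 0.245 and -0.46 with TMM scaling. With median-of-ratios scaling they became 0.20 and -0.45, and the shift brings 0 into the interval at 0 h. The tertiles also covered unlike score ranges at both times. These results drew attention because both time points or both sets moved in opposite directions, and with 1 library per time point none of the differences was tested against the spread between animals.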

How the results depend on the processing

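The median of the uptake genes stayed below 0 under all 12 settings in both sets. The number of the 9 genes called lower above 30% mt was 3, and 4 on all UMIs, without the 20 most abundant genes and when thinned, and 5 under TMM and 5 under median of ratios; under 2% mt it was 6 and between 4 and 8. Where the number above 30% mt was 4, the added gene was Abcc3 when thinned and Abcb11 in the other settings. The number called higher was 0 under every setting in both sets.

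Above 30% mt, the median log2 ratio of the uptake genes (-1.88) became -2.14 on all UMIs, -2.14 without the 20 most abundant genes, -2.44 under TMM, -2.42 under median of ratios, -1.73 as a mean over single barcodes and -1.54 when thinned. The canalicular median (0.36) became 0.47 above 50% mt, 0.10 on all UMIs, 0.10 without the 20 most abundant genes, and reversed to -0.20 under TMM and -0.17 under median of ratios. Abcb4, Abcc2 and Abcg5 reversed with it, to -0.14, -0.25 and -0.15 under TMM and to -0.12, -0.22 and -0.13 under median of ratios. Slco1b2 at 48 h, above against under, reversed to -0.15 and -0.22.

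Under 2% mt, the uptake median (-2.35) became -2.58 without the 20 most abundant genes, -2.70 under TMM and -2.61 under median of ratios. The canalicular median (-1.00) became -1.23, -1.34 and -1.25 under the same settings and -0.72 when thinned. The canalicular minus the uptake median stayed between 1.84 and 2.27 above 30% mt and between 1.34 and 1.54 under 2% mt.

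Over all genes, TMM moved the shares called higher and lower from 32.6% and 5.62% to 14.6% and 15.8% above 30% mt (15.4% and 15.2% under median of ratios), and from 26.7% and 22.3% to 18.2% and 31.8% under 2% mt. Above 30% mt the counts of 2417 higher and 417 lower also became 1207 and 535 on all UMIs, 1913 and 714 without the 20 most abundant genes, 2744 and 692 when thinned, 5265 and 1695 of 14520 genes without the low-value filter, and 1248 and 262 with 10 CPM added. Under 2% mt the counts of 1706 and 1428 became 3989 and 5679 of 16189 genes without the filter and 1107 and 822 with 10 CPM added. The causes of these shifts were not tested. Without Cyp2e1 and Cyp2f2 in the zonal score, the largest change was in Slco1b2 at 0 h, from 1.90 to 1.81.

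No paired analysis was possible because the labels carry no replicate numbers and each group is 1 library. Depth limits Abcg5 most, at 43 UMIs at 48 h under 2% mt.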
